A study of Mus musculus with 6 samples.

Results

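Levels of 7 genes known from the Paneth cell of the small intestine, Defa21, Lyz1, Ang4, Mmp7, Sox9, Atoh1 and Spdef, were followed in prostate tumors driven by the Wnt/β-catenin pathway. They are 7 of the 24091 genes in the deposited count table and were taken by symbol, as a list selected on measured values, their counts in these tumor and WT libraries in an earlier analysis. RNA was sequenced from 6 mouse libraries in 3 groups of 2. The 12Q group was prostate tumors of males hemizygous for a humanised allele whose polyglutamine tract has 12 glutamines, and the 48Q group was tumors of males with the 48-glutamine form. Both tumor groups also carried Ctnnb1(Ex3)L/wt, 1 conditional exon 3 allele of the β-catenin gene, and the transgene labelled PBCre-4, in which the epithelial probasin promoter drives Cre in the prostate. Without exon 3, β-catenin lacks the residues that mark it for degradation. The third group (WT) was normal prostate of wild-type mice, which lacked the humanised allele, the conditional allele and Cre alike, so a tumor against WT comparison cannot tell these apart. Ages are not in the labels, nor is it stated that the libraries of a group are from different mice. The p-values therefore reflect the spread between libraries alone, and that spread may be technical.

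Paneth cells sit at the base of small intestinal crypts and secrete antimicrobial proteins, among them α-defensins, lysozyme and angiogenin 4, into the gut lumen. Wnt signalling maintains the crypt and also drives the maturation of Paneth cells, in which the Wnt-responsive transcription factor Sox9 is required. Atoh1 commits intestinal progenitors to the secretory lineages, Spdef acts after it in goblet and Paneth cell maturation, and the protease Mmp7 (matrilysin) cleaves mouse pro-α-defensins to their active form.

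Libraries held 26416181 to 28559546 counts, and levels are given as CPM, the usual unit that divides counts by the library total, here after scaling by the trimmed mean of M-values (TMM). A count of 3 corresponded to 0.0855 to 0.156 CPM, the upper limit that a count of 0 allows for counting error only. The libraries were bulk tissue, in which fewer cells of a type and less RNA per cell cannot be told apart. The prostate transcription factor Hoxb13 was found in all 6 libraries at 57.1 to 246 CPM. The 8 smooth muscle genes summed to 2369 to 6000 CPM in WT, 319 to 888 in 48Q and 54.5 to 55.4 in 12Q tumors. Of the markers that define intestinal epithelium, Cdx1 had 1 count, Cdx2 had 2, Fabp1 had 1 and Alpi had 0 counts over the 6 libraries together, while Cdh17, Vil1 and Gpa33 of the same list rose in 12Q tumors and are described with it below. Gene totals of the targeted Ctnnb1, at 957 to 1081 CPM in tumors and 569 and 669 CPM in WT, count all exons and do not check the loss of exon 3. Differences were tested with edgeR's quasi-likelihood test over 15050 genes, among them all 7 genes described here, and a gene is called where its Benjamini-Hochberg adjusted p is below 0.05.

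Of these genes 4 stood higher in every tumor library than in either WT library (Defa21, Mmp7, Sox9 and Atoh1). Spdef stood lower in every tumor library. Ang4 was found in 3 tumor libraries and at 0 in the other, and Lyz1 overlapped between 48Q and WT and was lowest in 12Q tumors. In the edgeR test, 5 of the 7 were called in 12Q tumors against WT, where 22.4% of all genes tested were called, and 2 in 48Q tumors against WT, where 5.18% were (3.95% higher and 1.23% lower). Since the genes were chosen with these contrasts known, nothing is read from those counts, and levels against WT are given as a description. Between the tumor genotypes 1 of the 7 was called (Spdef), where 4.17% of all genes were. The median log2 fold change of the 7 was 3.33 in 12Q and 2.24 in 48Q tumors against WT and 1.21 in 12Q against 48Q, beside medians of -0.01, 0.02 and 0.00 over all genes. With genes at 0 in WT set to their lower bounds, the 48Q median was 2.12. Library totals in place of TMM moved the median of all genes by 0.50 in 12Q and 0.68 in 48Q tumors against WT and by -0.19 between the genotypes, so changes below are relative to the TMM median.

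**Figure D1:**
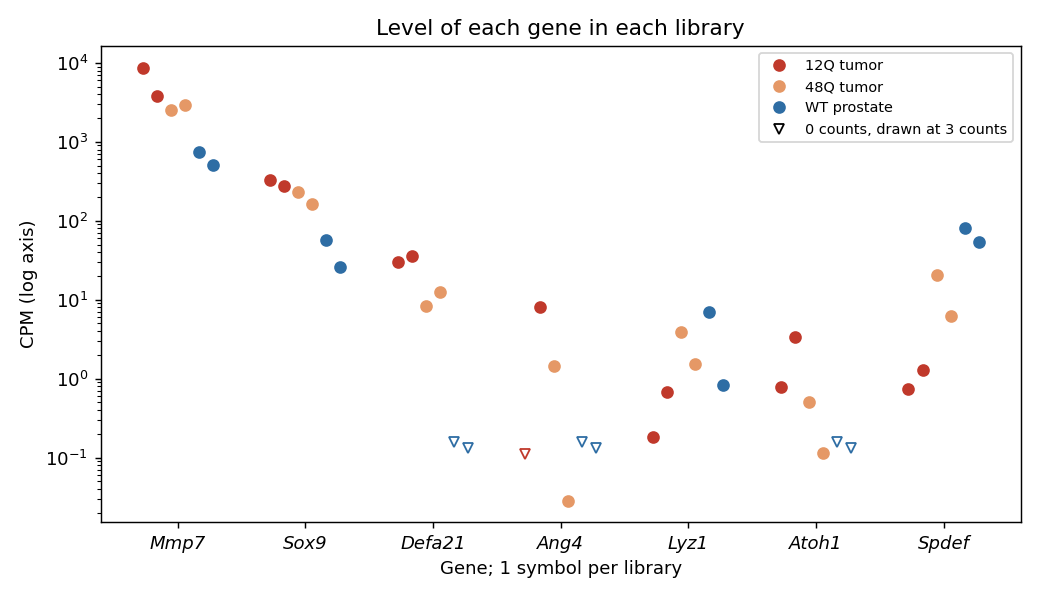
Level of each of the 7 genes in each library, in CPM on a log axis, with 1 symbol per library and open triangles at the level of 3 counts where a library had 0. Mmp7, Sox9, Defa21 and Atoh1 lie higher in all 4 tumor libraries than in WT, Spdef lies lower, and Lyz1 and Ang4 are scattered.

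Defa21 encodes an α-defensin, a small cationic peptide that disrupts bacterial membranes. The gene lies in the defensin cluster at chr8:21025545-21026517 (mm10, + strand). Its counts were 802 and 1168 in the 12Q libraries, 280 and 436 in the 48Q libraries and 0 in both WT libraries. Every tumor library was far above the level of 3 counts, and both 12Q libraries were above both 48Q libraries. Mean levels were 32.9 ± 4.58 CPM (SD, n = 2) in 12Q and 10.4 ± 2.83 CPM (SD, n = 2) in 48Q tumors. Against 3 counts per WT library, Defa21 was at least 228-fold higher in 12Q and at least 72.2-fold higher in 48Q tumors. Per kilobase of transcript, its mean level ranked 709th of 15050 genes in 12Q and 2240th in 48Q tumors.

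Between the tumor genotypes the log2 fold change of Defa21 was 1.66 (SE 0.36), 12Q over 48Q, with an adjusted p of 0.0660 by edgeR. It therefore missed the threshold, although the groups did not overlap. DESeq2's Wald test put the same difference past it (log2 fold change 1.68, adjusted p = 0.00121).

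The near-identical copy Defa22 decides how the counts of Defa21 can be read. The last 102 bases of each coding sequence, which hold the mature peptide's end and the stop codon, are shown for 4 defensins from GENCODE M21 transcripts. Capitals mark bases that differ from Defa21 in an ungapped comparison.
Defa21: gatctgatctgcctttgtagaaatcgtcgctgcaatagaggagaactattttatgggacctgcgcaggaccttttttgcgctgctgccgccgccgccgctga
Defa22: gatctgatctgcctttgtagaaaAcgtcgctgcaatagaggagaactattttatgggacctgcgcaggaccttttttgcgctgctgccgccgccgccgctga
Defa24: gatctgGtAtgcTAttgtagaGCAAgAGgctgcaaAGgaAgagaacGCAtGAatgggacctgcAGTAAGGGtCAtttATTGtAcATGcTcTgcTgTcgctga
Defa34: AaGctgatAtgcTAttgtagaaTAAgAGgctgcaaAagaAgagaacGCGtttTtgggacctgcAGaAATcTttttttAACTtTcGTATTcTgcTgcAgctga
Defa22 differs from Defa21 at 1 of these bases and at 2 of the 282 coding bases. Defa24 differs at 40 of the 102 and Defa34 at 35. Of the 50-base windows of the Defa21 transcript, 72.9% also occur in another gene, mainly Defa22, so how the authors' counting split reads between the pair is uncertain. The treatment of reads with several matches is not given in the sources used here.

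Defa22 had 755 and 1295 counts in the 12Q libraries, 260 and 315 in the 48Q libraries and 1 in each WT library, the same order as Defa21. It rose in both tumor genotypes against WT, by a ratio of 722 (exact 95% counting interval 199.6 to 5964, adjusted p = 0.00256) in 12Q and of 176 (48.5 to 1456, adjusted p = 0.00662) in 48Q. Since Defa22 passed the count filter only through tumor libraries and may share reads with Defa21, its values against WT are given as a description. It was also higher in 12Q than in 48Q tumors (log2 fold change 2.02, SE 0.33, adjusted p = 0.0332). That last call was lost with library totals in place of TMM and in 4 of the 6 fits that left out 1 library (any tumor library), and the 48Q call was lost without WT replicate 1. Summed with Defa21, which removes the split of reads between these 2 genes but not the loss of any reads dropped for matching several genes, the pair reached 66.9 ± 13.2 CPM (SD, n = 2) in 12Q, 18.8 ± 3.65 in 48Q and 0.0482 ± 0.00562 in WT.

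The table holds 21 Defa genes, of which 13 had any count, 1 had a count in WT (Defa22) and 7 were tested. All Defa genes together reached 62.1 and 87.1 CPM in 12Q, 36.8 and 34.6 CPM in 48Q and 0.0521 and 0.0442 CPM in WT. Which defensins made up the sum differed between the tumor genotypes. Defa21 and Defa22 took 47.7% and 44.9% of Defa counts in 12Q replicate 1 and 41.5% and 46.0% in 12Q replicate 2. In 48Q replicate 1 they took 22.9% and 21.3%, and Defa24 took 31.1%. In 48Q replicate 2 they took 35.9% and 25.9%, and Defa24 took 18.8%.

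Defa24 had 380 and 228 counts in 48Q tumors, 0 and 4 in 12Q tumors and 0 in WT. It was lower in 12Q than in 48Q tumors (log2 fold change -7.00, SE 1.15, adjusted p = 0.0421), opposite in direction to Defa22. Library totals in place of TMM, or leaving out any 1 tumor library, ended that call. Defa24 also passed the count filter only with the 48Q libraries, so its adjusted p is given as a description. Defa17 followed the same order, with 95 and 63 counts in 48Q against 1 and 6 in 12Q and 0 in WT, but missed the threshold between tumors (adjusted p = 0.0656). Of the 50-base windows of Defa17, 92% occur in other defensins, of those of Defa34 84% and of those of Defa24 28.1%. Defa26 (48 and 157 counts in 12Q against 34 and 45 in 48Q) and Defa34 (63 and 119 in 12Q, 40 and 82 in 48Q) were at 0 in WT and were called in both tumor genotypes against WT. Their adjusted p-values between the tumor genotypes were 0.246 and 0.482. The 48Q calls of Defa17, Defa24, Defa26 and Defa34 were each lost when either 48Q or either WT library was left out.

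**Figure D2:**
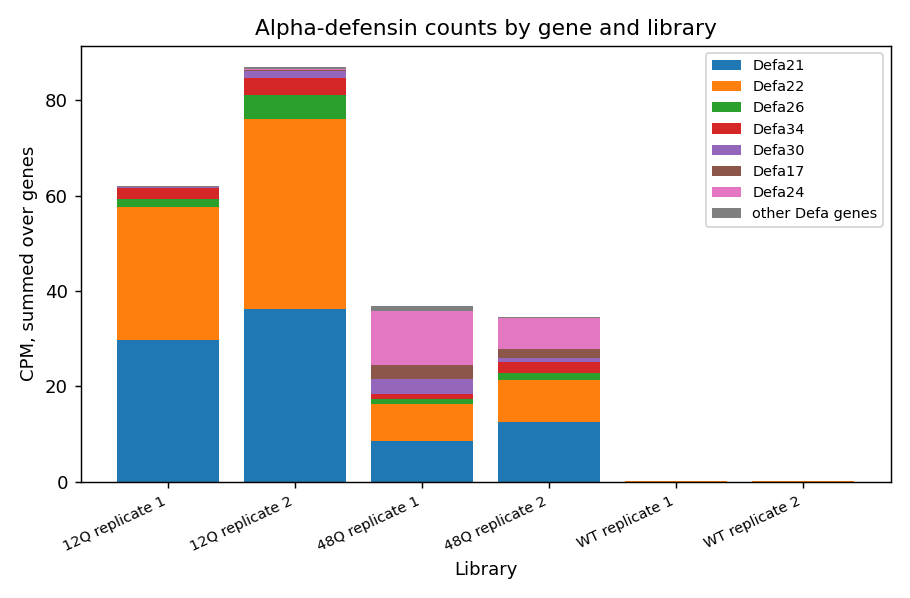
Stacked bars of α-defensin levels per library, in CPM summed over genes, with 1 colour per gene. Defa21 and Defa22 make up most of both 12Q bars, Defa24 and Defa17 appear in the 48Q bars, and the WT bars are near 0.

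The start-site region of Defa21 was compared with that of the other genes, since Defa21 and Defa22 moved together. RefSeq promoter sequences (GRCm38.p6, 250 bases before to 50 bases after each start) were found for 6 of the 7 genes. Sox9 was not matched. The promoters of Defa21 and Defa22 are identical in all 300 bases. Positions -160 to -61 from the start site are shown for Defa21 (chr8:21025385-21025484, + strand) and Ang4 (chr14:51773651-51773750, - strand). Capitals mark CTTTG or its reverse complement, the core that TCF/LEF factors, the DNA-binding partners of β-catenin, recognise.
Defa21: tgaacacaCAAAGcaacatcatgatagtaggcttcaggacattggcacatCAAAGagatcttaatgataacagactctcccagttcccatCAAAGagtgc
Ang4: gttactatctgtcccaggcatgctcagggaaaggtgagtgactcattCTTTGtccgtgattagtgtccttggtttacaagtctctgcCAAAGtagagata
Searched on both strands, CTTTG was found in 5 of the 6 promoters (Ang4, Atoh1, Defa21, Lyz1 and Mmp7) and in 53.9% of 32851 promoters of the same length. The longer forms CTTTGAA or CTTTGTT, which contain it, were found in 0 of the 6 and in 10.6% of all promoters. The form CTTTGAT was not searched for, so that 0 does not cover it. Its reverse complement stands in the Defa21 window above, at the matches at -110 and -70 from the start site. The Atoh1 match at -148 also reads CTTTGAT. AGATCAAAG, which contains its reverse complement, was found in 0 of the 6 and in 0.344% of all. A match describes letters in this window and is not evidence of binding.

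**Figure D3:**
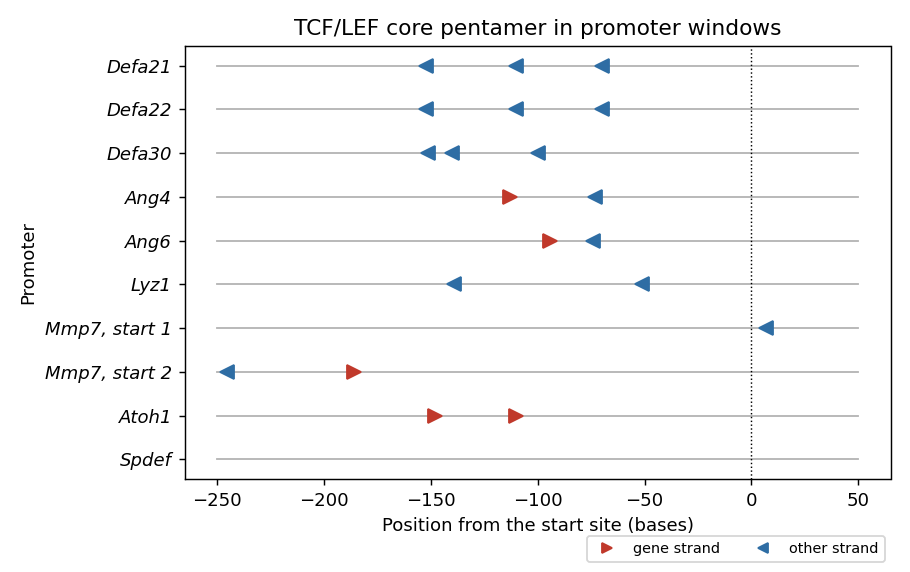
Position of each CTTTG match in the promoter windows of the matched genes and of Defa22, Defa30 and Ang6, in bases from the start site (dotted line), pointing right on the gene's strand and left on the other. Defa21 and Defa22 have matches at the same 3 positions, and Spdef has none.

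Lyz1 encodes the lysozyme of Paneth cells, an enzyme that cuts bacterial cell walls. The gene lies at chr10:117287795-117292868 (- strand). Its counts were 5 and 22 in the 12Q pair, 130 and 54 in the 48Q pair and 135 and 19 in the WT pair. Both 12Q libraries lay below both 48Q libraries, and the 48Q libraries lay between the 2 WT libraries. Mean levels were 0.433 ± 0.351 CPM (SD, n = 2) in 12Q, 2.73 ± 1.68 in 48Q and 3.94 ± 4.38 in WT. Lyz1 thus goes against the label of a Paneth-cell gene that is high in these tumors. Between tumor genotypes its log2 fold change was -2.63 (SE 1.18), 12Q over 48Q, with an adjusted p of 0.215 by edgeR.

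Lyz2, the macrophage lysozyme and the close copy of Lyz1 beside it on chromosome 10, took most lysozyme counts. It had 1611 and 6921 counts in the 12Q libraries, 7363 and 8518 in the 48Q libraries and 840 and 423 in the WT libraries. Lyz1 made up 0.309% and 0.317% of Lyz1 and Lyz2 counts in 12Q against 1.73% and 0.630% in 48Q, while the WT shares were 13.8% and 4.30%. The exact 95% (Clopper-Pearson) intervals were 11.7% to 16.2% and 2.61% to 6.63% in WT, above the upper bounds of all 4 tumor libraries, of which 2.06% was the highest. These intervals cover counting error only. Of the 50-base windows of Lyz1, 16.1% also occur in Lyz2.

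Most macrophage genes tested, from a list that includes Lyz2, rose in the tumors against WT. Of 11 macrophage genes tested, 8 rose and 1 fell in 12Q tumors, and 7 rose in 48Q tumors, against WT (11.2% of all genes rose and 11.2% fell in 12Q, and 3.95% rose in 48Q). C1qa, a complement subunit made by macrophages, rose by a log2 fold change of 1.97 (SE 0.22, adjusted p = 0.00492) in 12Q and 1.98 (SE 0.22, adjusted p = 0.0136) in 48Q. Cd163, a scavenger receptor, fell in 12Q (adjusted p = 0.00554), with 1 count in each 12Q library against 101 in each 48Q library and 46 and 105 in WT. Summed over the 12 listed genes, Lyz2 among them, levels were 343 to 539 CPM in 12Q, 557 to 564 in 48Q and 107 to 139 in WT. All 12 had counts in every tumor library. In 12Q replicates 1 and 2, Lyz2 was at 59.6 and 214 CPM. Cd68 was at 24.0 and 43.2 CPM there, C1qa at 56.5 and 58.3, and C1qb at 52.0 and 34.9. The part of macrophages in the lysozyme values was not tested. In 48Q tumors 0 macrophage genes were called without WT replicate 1 or without either 48Q library (9, 8 and 9 at an unadjusted p below 0.05 without WT replicate 1, 48Q replicate 1 and 48Q replicate 2), and 4 were called without WT replicate 2. DESeq2 with all libraries called 9.

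**Figure D4:**
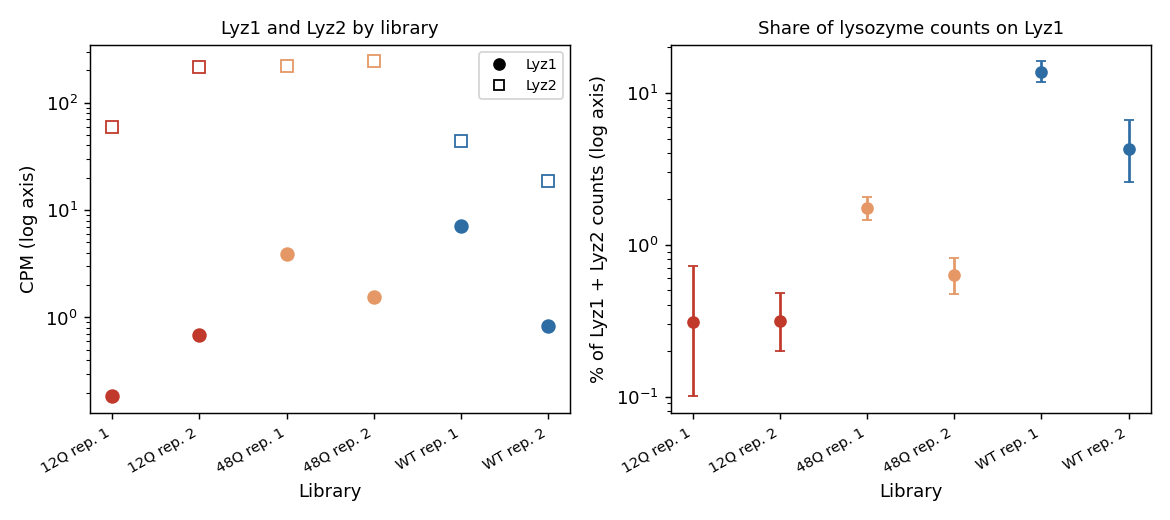
Left, Lyz1 (filled circles) and Lyz2 (open squares) per library in CPM on a log axis. Right, the percent of Lyz1 and Lyz2 counts on Lyz1 with exact 95% intervals, on a log axis, highest in the WT libraries (13.8% and 4.30%).

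Ang4 encodes angiogenin 4, a bactericidal ribonuclease of mouse Paneth cells, at chr14:51763892-51773590 (- strand). Its counts were 0 and 261 in 12Q, 48 and 1 in 48Q and 0 in both WT libraries. A single library thus held most of the signal, 12Q replicate 2 at 8.08 CPM, with 48Q replicate 1 at 1.44 CPM. The means were 4.04 ± 5.71 CPM (SD, n = 2) in 12Q and 0.737 ± 1.00 in 48Q, each with an SD above the mean. Against 3 counts per WT library the means were at least 27.9-fold and at least 5.10-fold higher, but without 12Q replicate 2 or 48Q replicate 1 the remaining library was at or under 3 counts and no bound could be given. Between tumors the log2 fold change was 2.46 (SE 2.33, adjusted p = 0.533), and without 12Q replicate 2 it was -7.34.

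The angiogenin copies Ang2 and Ang6, also on chromosome 14, were highest in the same library. Ang6 had 0 and 84 counts in the 12Q pair, 11 and 3 in the 48Q pair and 0 and 1 in the WT pair, and Ang2 had 7 and 36 in the 12Q libraries, 12 and 1 in the 48Q libraries and 0 in WT. By contrast with the defensins, 4.7% of the 50-base windows of Ang4 occur in another gene. Ang, the broadly expressed angiogenin, had 2774 and 578 counts in 12Q and was highest in the other 12Q library, but its exons overlap those of Rnase4, which makes its counts uncertain. Of 7 angiogenin and ribonuclease genes tested, Rnase1 alone was called. It rose by a log2 fold change of 3.69 (SE 0.32, adjusted p = 0.00294) in 12Q and 3.63 (SE 0.31, adjusted p = 0.00991) in 48Q tumors, the latter lost without WT replicate 1.

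Mmp7, the protease that activates mouse α-defensins and that also degrades extracellular matrix, lies at chr9:7692090-7699585 (+ strand). Per kilobase it had the highest mean level of the 7 genes in every group. Its counts were 236250 and 123495 in the 12Q libraries, 84684 and 101666 in the 48Q libraries and 14153 and 11597 in the WT libraries. The groups did not overlap, and 12Q replicate 1 was 8739 CPM against 3821 CPM in 12Q replicate 2. Mean levels were 6280 ± 3477 CPM (SD, n = 2) in 12Q, 2724 ± 247 in 48Q and 625 ± 159 in WT, so the means of 12Q and 48Q tumors were 10.04-fold and 4.36-fold that of WT. Per kilobase, Mmp7 ranked 2nd of 15050 genes in 12Q, 5th in 48Q and 48th in WT, so it was already abundant in normal prostate.

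Between tumors the log2 fold change of Mmp7 was 1.21 (SE 0.56), 12Q over 48Q, with an adjusted p of 0.228 by edgeR and 0.0487 by DESeq2. Without 12Q replicate 1 it was 0.52. An exon of Mmp7 overlaps AV064505, which had at most 3.37 CPM in any library. Of the 13 other matrix metalloproteases tested, 3 rose in 12Q tumors (11.2% of all genes) and 1 in 48Q tumors (3.95% of all). Mmp12, the macrophage elastase, rose in both (log2 fold change 5.60, SE 0.81, adjusted p = 0.00848 in 12Q, and 5.29, SE 0.80, adjusted p = 0.0266 in 48Q). It was lost in 12Q without either WT library and in 48Q without WT replicate 1, WT replicate 2 or 48Q replicate 1. The neutrophil collagenase Mmp8 and the membrane-bound Mmp14 were called in 12Q (adjusted p = 0.0495 and 0.0362). Both calls were lost with only the 2 groups in the fit and without 12Q replicate 2 or either WT library, and that of Mmp8 also without either 48Q library. The median log2 fold change of these 13 was 1.07 in 12Q and 1.77 in 48Q tumors. With library totals 6 rose in 12Q and 2 in 48Q.

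Sox9 is a transcription factor of crypt progenitors and Paneth cells that is also made in developing prostate epithelium, at chr11:112782210-112787757 (+ strand). Its counts were 8774 and 8972 in the 12Q pair, 7770 and 5730 in the 48Q pair and 1109 and 589 in the WT pair. Every tumor library was above both WT libraries, at 163 to 325 CPM against 26.04 and 57.8 CPM. The means were 301 ± 33.2 CPM (SD, n = 2) in 12Q, 199 ± 49.9 in 48Q and 41.9 ± 22.5 in WT, a ratio to WT of 7.18 and 4.74. The tumor genotypes differed by a log2 fold change of 0.60 (SE 0.41, adjusted p = 0.385). Both 12Q libraries lay above both 48Q libraries, but the difference did not pass the test. No 50-base window of Sox9 occurs in another gene.

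Of 13 other SOX genes tested, 3 rose and 3 fell in 12Q tumors against WT (11.2% of all genes each way). The calls of Sox18 and Sox12 were kept in 1 of 6 fits that left out a library and that of Sox21 in 0. Of the 6 calls 4 were kept without WT replicate 2, and 3 in each of the other fits. Sox4, a factor of epithelial progenitors, rose in 12Q (log2 fold change 3.12, SE 0.34, adjusted p = 0.00470) and in 48Q (1.95, SE 0.33, adjusted p = 0.0324), the latter lost without either 48Q or either WT library. Sox2 and Sox6 fell in 12Q against WT and against 48Q tumors. Sox2, a stem cell factor, had 0 and 2 counts in the 12Q libraries, 213 and 168 in the 48Q libraries and 38 and 90 in the WT libraries. The Sox2 and Sox6 calls against 48Q were lost without any 1 tumor library, and that of Sox6 against WT without 12Q replicate 2.

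Atoh1, the basic helix-loop-helix factor that commits intestinal cells to secretory fates, lies at chr6:64729146-64731235 (+ strand). Its counts were 21 and 110 in 12Q, 17 and 4 in 48Q and 0 in both WT libraries. All 4 tumor libraries had counts, but 48Q replicate 2 with 4 counts was close to the level of 3. The means were 2.09 ± 1.86 CPM (SD, n = 2) in 12Q and 0.313 ± 0.281 in 48Q, at least 14.5-fold and at least 2.16-fold higher than WT. Without 48Q replicate 1 no bound could be given for 48Q. Per kilobase Atoh1 ranked 11372nd of 15050 in 12Q tumors, so it stayed a low transcript. Between tumors the log2 fold change was 2.73 (SE 1.11, adjusted p = 0.198).

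Notch signalling represses Atoh1 in the crypt. Of 11 Notch genes tested, 1 rose and 1 fell in 12Q tumors against WT, a share near the 11.2% of all genes called each way. Nrarp, a Notch-induced feedback inhibitor, rose (log2 fold change 2.88, SE 0.46, adjusted p = 0.0108). Jag2, a Notch ligand, fell (log2 fold change -2.62, SE 0.53, adjusted p = 0.0203), a call lost without 12Q replicate 1 or WT replicate 2. In 48Q tumors against WT, and between the tumor genotypes, 0 were called by edgeR, with 3 at an unadjusted p below 0.05 in each. Of 3 tested genes of Atoh1-dependent Merkel and neuroendocrine programmes, Hes6 rose and Isl1 fell in 12Q tumors, the former lost without any 1 of the 48Q or WT libraries. Isl1 had 0 and 1 counts there against 264 and 234 in 48Q and 91 and 382 in WT libraries.

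Spdef is an ETS transcription factor of goblet and Paneth cells that was first described in prostate epithelium, at chr17:27714447-27728951 (- strand). Its counts were 20 and 42 in the 12Q pair, 683 and 221 in the 48Q pair and 1573 and 1228 in the WT pair. The 3 groups did not overlap, and the order was opposite to that of Defa21, Mmp7 and Sox9. The means were 1.02 ± 0.396 CPM (SD, n = 2) in 12Q, 13.4 ± 10.1 in 48Q and 68.2 ± 19.6 in WT, which made Spdef 66.8-fold lower in 12Q and 5.07-fold lower in 48Q tumors than in WT. Per kilobase its rank was 12130th in 12Q, 6777th in 48Q and 1729th in WT. Spdef therefore goes against the label, being high in normal prostate and low in tumors.

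Spdef fell in 12Q against 48Q tumors (log2 fold change -3.70, SE 0.66, adjusted p = 0.0402), the one call among the 7 genes between genotypes. The call was kept in 1 of 6 fits that left out a library, that without 48Q replicate 2 (adjusted p = 0.0299). Without the others the adjusted p was 0.128 (12Q replicate 1), 0.0950 (12Q replicate 2), 0.116 (48Q replicate 1), 0.0583 (WT replicate 1) and 0.0577 (WT replicate 2), and with only the 2 groups in the fit it was 0.0600. The log2 fold change stayed between -4.31 and -2.61 in these fits.

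Genes of prostate secretion and of goblet cells, which Spdef is known to act in, were listed beside it. Prostate secretory products summed to 342715 to 347315 CPM in WT, 21151 to 38914 in 48Q and 1148 to 19718 in 12Q tumors. Of 6 tested, 2 fell in 12Q against WT (11.2% of all genes). In 48Q against WT 0 were called by edgeR, with 2 at an unadjusted p below 0.05. Defb50 of this list went the other way in 48Q, at 610 and 541 CPM against 110 and 111 in WT. The goblet list summed to 1497 to 1946 CPM in WT, while 48Q (164 to 342 CPM) and 12Q tumors (153 to 192 CPM) overlapped. Agr2 alone was at 1723 and 1207 CPM in the WT libraries, so the WT sum was mostly that gene and does not describe the list as a whole. Agr2, a secretory-pathway disulfide isomerase of goblet cells and prostate, had 33035 and 27305 counts in the WT libraries, 6147 and 3518 in the 48Q libraries and 537 and 225 in the 12Q libraries. It fell in 12Q (log2 fold change -6.77, SE 0.72, adjusted p = 0.00444) and in 48Q (-3.36, SE 0.62, adjusted p = 0.0388) against WT, and in 12Q against 48Q (-3.41, SE 0.62, adjusted p = 0.0409). The 48Q call was lost without either 48Q or either WT library, and the call between tumors in every fit that left out 1 library. Creb3l1 fell in 12Q tumors (log2 fold change -3.39, SE 0.50, adjusted p = 0.00867). Of 6 goblet genes tested, 2 fell in 12Q (11.2% of all genes fell), and 1 fell and 1 rose (Clca1) in 48Q tumors (1.23% and 3.95% of all). Clca1 stayed called in 1 of 6 fits, that without 48Q replicate 2. Muc2, the main gut mucin, had 130 counts in 48Q replicate 1 and 0 to 6 in each other library, so it did not pass the count filter. The part of secretory and goblet genes in the Spdef values was not tested. Of 7 other epithelial ETS factors, 3 rose in 12Q tumors against WT, opposite to Spdef (11.2% of all genes rose). They were Elf3 (log2 fold change 3.17, SE 0.62, adjusted p = 0.0188), Elf5 and Elk3. Ehf, the most abundant of the 7, did not share that rise. Its 48Q levels (589 and 655 CPM) were below both WT levels (1149 and 2446 CPM). Replicate 1 of 12Q, at 1189 CPM, lay between the WT libraries, while replicate 2, at 686 CPM, lay below them. Without WT replicate 1 the calls of Elf3 and Elf5 were lost, as they were for Elf3 without WT replicate 2, for Elf5 without 12Q replicate 2 and for Elk3 without any 1 tumor library.

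Other secreted products of Paneth cells were taken from a list of 39 genes, of which 30 were in the table, 9 of these at 0 in every library, and 13 were tested. In 12Q tumors against WT 4 rose and 1 fell (11.2% of all genes each way), and in 48Q tumors 7 rose (3.95% of all genes). The 12Q increases were Defa22, Defa26, Defa34 and Habp2, and the decrease was Reg3g. The median log2 fold change of the 13 was 4.36 in 12Q and 8.58 in 48Q tumors, or 0 and 3.79 with genes at 0 in a group set to their bounds. Products at 0 in WT, such as Defa24, Defa26 and Defa34, passed the count filter only through tumor libraries. Nothing is therefore read from these counts and medians against WT. Between tumors 1 rose (Defa22) and 5 fell in 12Q against 48Q, beside 1.01% and 3.16% of all genes, with a median of -4.29. Defa17, Defa24, Defa30, Pla2g2a and Reg3b passed the count filter only with the 48Q libraries, so nothing is read from these counts and that median either. The adjusted p-values of these genes between the tumor genotypes are given as a description.

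The 5 that were lower in 12Q were Defa24, Habp2, Pla2g2a, Pnliprp2 and Reg3g, of which all but Habp2 and Defa24 are named after their values were seen. Pla2g2a encodes a secreted phospholipase that kills Gram-positive bacteria. It had 13926 and 4755 counts in 48Q against 1 and 91 in 12Q, with 1 in each WT library (log2 fold change -7.57, SE 1.43, adjusted p = 0.0449, 12Q over 48Q). Pnliprp2, a lipase, had 22518 and 10606 counts in 48Q against 2 and 65 in 12Q, with 160 and 588 in WT (log2 fold change -8.84, SE 1.41, adjusted p = 0.0324). Habp2, a serine protease, had 1368 and 700 counts in 48Q against 22 and 42 in 12Q, with 0 and 2 in WT (log2 fold change -4.84, SE 0.68, adjusted p = 0.0255). Reg3g, a bactericidal lectin, had 260 and 59 counts in 48Q, 0 in both 12Q and 16 and 18 in WT libraries, and was at least 46.7-fold lower in 12Q than in 48Q tumors (adjusted p = 0.0388).

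These calls leaned on single libraries and on the scaling. With library totals 0 rose and 3 fell in 12Q against 48Q, and the calls of Defa22, Defa24 and Pla2g2a were lost (adjusted p = 0.0520, 0.0538 and 0.0566 by edgeR). Without 12Q replicate 1 or without 48Q replicate 1, 0 of the 13 were called between tumors (10 and 9 at an unadjusted p below 0.05), and leaving out the others gave 1 (12Q replicate 2), 3 (48Q replicate 2) and 4 (either WT library) of the 6. In 48Q against WT the count fell from 7 to 2 without 48Q replicate 1, 3 without 48Q replicate 2, 2 without WT replicate 2 and 0 without WT replicate 1 (11 at an unadjusted p below 0.05 in the latter). Without WT replicate 1, 0 genes of the whole table were called in that comparison by edgeR, with 2972 at an unadjusted p below 0.05. In 12Q against WT the count without WT replicate 1 was 3 of 5. DESeq2 with all libraries called 8, 10 and 9 of the list in 12Q against WT, 48Q against WT and 12Q against 48Q. The sum of the list was 35.1 to 57.6 CPM in 12Q, 492 to 1182 in 48Q and 17.6 to 29.3 in WT. Pla2g2a and Pnliprp2 held 92.8% and 88.9% of it in the 48Q libraries. Without these 2 genes, an alternative chosen after seeing the data, the sum was 35.0 and 52.8 CPM in 12Q, 84.8 and 54.4 CPM in 48Q, and 9.18 and 3.27 CPM in WT, so 48Q replicate 2 and 12Q replicate 2 stood close together.

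**Figure D5:**
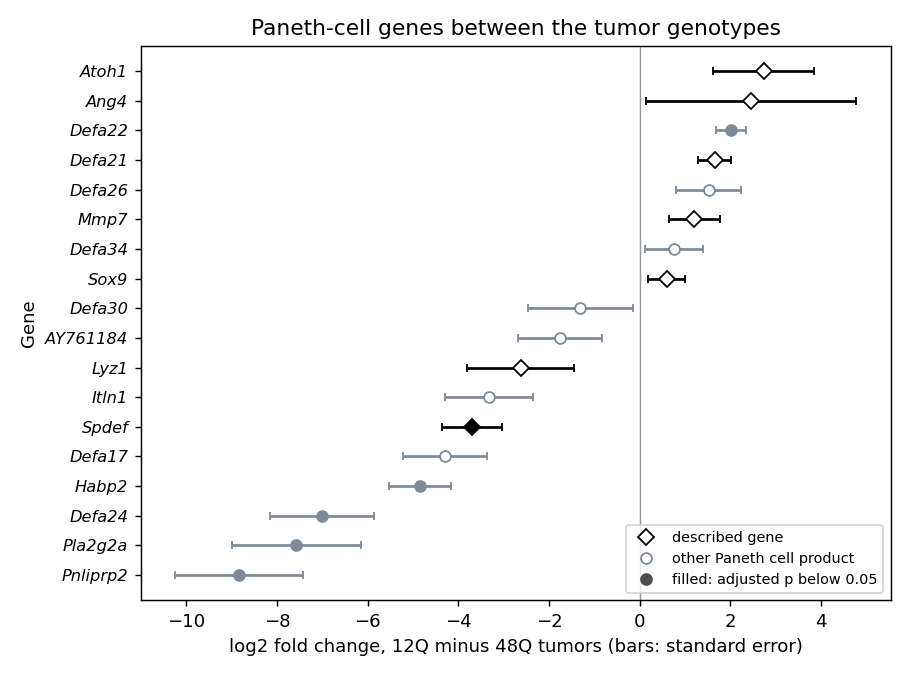
Log2 fold change of 12Q over 48Q tumors with standard errors for the 7 genes (diamonds) and tested Paneth cell products (circles), filled where the edgeR adjusted p was below 0.05. Spdef and 4 drawn products are filled on the side of 48Q, Defa22 on the side of 12Q, and the remaining 6 of the 7 genes are open. Reg3b and Reg3g, at 0 in 12Q tumors, are not drawn.

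Regulators and niche signals of Paneth cells were a list of 13 genes, of which 12 were tested. In 12Q tumors against WT 3 rose and 2 fell (11.2% of all genes each way), with a median log2 fold change of 0.42 over the 12. Ephb3, the receptor that positions Paneth cells at the crypt base and a Wnt target, rose (log2 fold change 4.80, SE 0.72, adjusted p = 0.00936). Dll4, a Notch ligand of Paneth cells, rose (3.94, SE 0.89, adjusted p = 0.0270), a call lost without either 12Q library. Tgfa rose with an adjusted p of 0.0409, lost without 12Q replicate 2, WT replicate 2 or either 48Q library. Egf, the growth factor supplied by Paneth cells in the niche, fell (log2 fold change -8.34, SE 1.08, adjusted p = 0.00660), from 24010 and 16557 counts in WT to 138 and 34 in 12Q libraries. Bhlha15, a factor of secretory cells, fell with an adjusted p of 0.0413, lost without either WT library and with library totals (0.0598). In 48Q tumors 0 were called by edgeR, with 6 at an unadjusted p below 0.05 and 4 called by DESeq2. Without 12Q replicate 2 the 12Q count was 3 of 5.

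Some genes of intestinal stem cells and the Wnt pathway rose in the tumors. Of 17 tested, 7 rose and 1 fell in 12Q tumors (11.2% of all genes each way) and 5 rose in 48Q tumors (3.95% of all genes), and the median log2 fold change was 1.51 in 12Q and 1.61 in 48Q tumors. Axin2, the feedback inhibitor of the pathway, rose by 1.85 (SE 0.33, adjusted p = 0.0143) in 12Q and 1.77 (SE 0.33, adjusted p = 0.0394) in 48Q on the log2 scale. Notum rose by 4.55 (SE 0.55, adjusted p = 0.00572) and 5.74 (SE 0.58, adjusted p = 0.0108), and Cd44 by 5.82 (SE 0.43, adjusted p = 0.00270) and 4.47 (SE 0.41, adjusted p = 0.00991). The 48Q calls of all 3 were lost without WT replicate 1, and that of Axin2 also without WT replicate 2 or either 48Q library. In 12Q the Axin2 call was lost without WT replicate 1. Between tumors Axin2 differed by a log2 fold change of 0.08 (SE 0.32, adjusted p = 0.892), while Smoc2 fell in 12Q, a call lost without either 12Q library or 48Q replicate 1. The 48Q count was 2 without either 48Q library and 0 without WT replicate 1 (7 at an unadjusted p below 0.05), and 9 by DESeq2 with all libraries.

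Of the intestinal epithelium list 8 of 13 genes were tested, of which 3 rose and 1 fell in 12Q (11.2% of all genes each way) and 1 rose in 48Q tumors (3.95% of all). Cdh17, an intestinal cadherin, had 9174 and 5217 counts in the 12Q libraries, 586 and 1651 in the 48Q libraries and 1 and 2 in the WT libraries. It rose by a ratio of 3378 (exact 95% counting interval 1156 to 16383, adjusted p = 0.00274) in 12Q and of 456 (156 to 2215, adjusted p = 0.0111, lost without either WT library) in 48Q. Vil1, the microvillus protein villin, had 2119 and 22873 counts in 12Q and 10 and 56 in WT libraries and was called in 12Q, a call lost without WT replicate 1, when 2 of the 4 calls of the list were left. The exons of Vil1 overlap those of Usp37, which had 38.8 to 59.4 CPM, so its low values in WT are uncertain. Gpa33, an intestinal surface antigen, had 16 and 233 counts in 12Q, 119 and 94 in 48Q against 1 and 0 in WT, and its 12Q call (adjusted p = 0.0314) was lost without 12Q replicate 2 or either WT library. Cdx1, Cdx2, Fabp1 and Alpi were at 0 to 2 counts in every library.

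Antimicrobial products that are not particular to Paneth cells were a list of 14 genes. Of 10 tested, 6 rose in 12Q tumors (11.2% of all genes) and 3 in 48Q tumors (3.95% of all genes), and the sum of the list was 2043 to 8459 CPM in 12Q, 2147 to 2322 in 48Q and 597 to 948 in WT. Ltf, which encodes lactoferrin, had 19207 and 93953 counts in the 12Q pair, 2402 and 1718 in the 48Q pair and 6 and 14 in the WT pair. It rose in 12Q (log2 fold change 11.89, SE 1.07, adjusted p = 0.00339) and 48Q (6.99, SE 0.91, adjusted p = 0.0186) against WT, and in 12Q against 48Q (4.90, SE 0.77, adjusted p = 0.0316). Pglyrp1, a peptidoglycan-binding protein, rose in 12Q (9.14, SE 0.67, adjusted p = 0.00270) and in 48Q tumors (8.09, SE 0.65, adjusted p = 0.00830). The β-defensin Defb1, named after its values were seen, was lower on average in 12Q (175 ± 106 CPM, SD, n = 2) and higher in 48Q tumors (686 ± 56.4) than in WT (334 ± 200.2), with adjusted p-values of 0.277 and 0.311 by edgeR. The siderophore-binding Lcn2 rose in 12Q with an adjusted p of 0.00890. The Ltf call was lost in 48Q without either WT library and between tumors without either 48Q library, and without WT replicate 1 the Pglyrp1 call was lost in 48Q and the Lcn2 call in 12Q. Genes of neutrophils, which are sources of Ltf and Lcn2, summed to 8.91 to 33.8 CPM in 12Q, 13.5 to 13.9 in 48Q and 0.309 to 0.678 in WT. Of the 9 listed, 4 had enough counts to be tested. Of these, 3 rose in 12Q (11.2% of all genes) and 2 in 48Q (3.95% of all genes). The 9 genes together had 13 and 7 counts in the WT libraries, so the tested ones passed the count filter only through tumor libraries. Nothing is therefore read from these counts against WT. The 48Q calls (S100a8 and Csf3r) were both lost without WT replicate 1 or either 48Q library. In 12Q the S100a9 call was lost without WT replicate 2, and that of Csf3r was kept in 1 of 6 such fits, that without 12Q replicate 1. Their part in the antimicrobial values was not tested.

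The genes whose levels followed each of the 7 most closely were found by Pearson's r of log2 CPM over the 6 libraries among 9217 genes with a mean of at least 10 CPM. These 6 points fall into 3 groups, so r is a description with no test. For Defa21 they were Bex1 (r = 0.999), Defa22 (0.998) and the transcription factor Sp6 (0.997). Sp6 stood at 389 and 460 CPM in the 12Q libraries, 97.2 and 144 in the 48Q libraries and 0.209 and 0.530 in the WT libraries. For Mmp7 they were Hebp2, Saysd1 and Nipal4 (0.990 to 0.997), and for Sox9 Kbtbd2, Tmem176b and Traf4 (0.992 to 0.995). For Spdef they were Ccdc68, Pip5k1b and Rragd (0.994 to 0.997). Atoh1 was followed by Tspan8 (0.991) and Fos (0.977), both highest in 12Q replicate 2, as was Atoh1. Ang4 was followed by Snapc1, Rere and Arhgef28 (0.947 to 0.966) and Lyz1 by Rasa2, Med13 and Zfp52 (0.966 to 0.988).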

How the data were processed

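The authors deposited 1 table of raw read counts per gene for 6 libraries, whole numbers with no normalization, beside a transcript length per gene in kilobases, also as deposited, which was used for per-kilobase levels. Per the submitters' processing notes, TopHat2 2.0.14 and HTSeq 0.6.0 were used with mm10. The annotation, like the strand setting, is not given in the sources used here, so genes whose exons overlap another gene are uncertain (Ang, Axin2, Bex1, Ccdc68, Ctnnb1, Dll4, Egf, Elf3, Elk3, Habp2, Kbtbd2, Krt5, Med13, Mmp7, Mmp12, Notum, Nrarp, Snapc1, Sox4, Sp6, Tgfa, Tmem176b, Tspan8, Vil1 and Zfp52 among those named). The number of columns matching no sample was 0. Of 24091 symbols, 23509 were found in GENCODE M21 (mm10). The coordinates of 23446 (99.7%) fell on the gene named.

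Genes of low counts were removed with filterByExpr of edgeR, at a minimum count of 10 and a minimum total of 15. Genes with few WT counts, such as Defa22, Cdh17, Gpa33, Clca1, Pglyrp1 and Ltf, passed it only through tumor libraries. Their calls against WT, and the list counts that hold them, are descriptions. The 3 groups entered 1 quasi-likelihood fit with TMM scaling (edgeR 4.0.16, R 4.3.3, 3 residual degrees of freedom), with Benjamini-Hochberg adjustment over 15050 genes and a threshold of 0.05. The fit was tested on simulated counts. Alternatives were DESeq2's size factors, library totals, no filter, DESeq2's Wald test (DESeq2 1.42.0), only the 2 groups compared, a replicate block and each library left out. Replicate pairs differed beyond sampling noise in every group (chi-square per degree of freedom 278, 42.6 and 194).

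The 7 genes and the lists were chosen with earlier results of these data known. Named genes are the 7, from each list up to 4 called genes with the smallest adjusted p over the 3 comparisons (the 2 highest by mean CPM where none was called), Lyz2, the Ang and Defa genes with counts, Ctnnb1, and the 3 genes most like each of the 7 by Pearson's r (log2 CPM, prior count 2), of which 1 for Atoh1 is not reported here. The markers Cdx1, Cdx2, Fabp1, Alpi, Muc2 and Hoxb13, and Pla2g2a, Pnliprp2, Reg3g, Reg3b, Bhlha15, C1qb, Defb1, Defb50, Ehf and Usp37, were named after their values were seen.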

Additional observations from a re-analysis of the deposited data

Results flagged for a closer look

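Spdef differed between the tumor genotypes under the same contrast with WT: its change against WT was larger in 12Q than in 48Q tumors, by a log2 difference of -3.70 (SE 0.66, edgeR adjusted p = 0.0402 over all genes tested), and it was lower in both 12Q libraries than in both 48Q libraries. That call was lost in 5 of 6 fits that left out 1 library, as given with its values above. No cause was tested.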

How the results depend on the processing

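The number of genes called in 12Q against WT was 3370 (1687 higher, 1683 lower), 1887 with only the 2 groups in the fit and 1861 to 2934 when 1 library was left out. In 48Q against WT it was 780 (595 higher, 185 lower), 2001 with library totals (1918 higher, 83 lower), 2540 by DESeq2 and 0 to 1215 when 1 library was left out (0 without WT replicate 1, by edgeR, with 2972 at an unadjusted p below 0.05). In 12Q against 48Q it was 627 (152 higher, 475 lower), 2481 by DESeq2 and 47 to 866 when 1 library was left out. With library totals the splits were 3265 higher and 1032 lower in 12Q against WT and 62 higher and 379 lower in 12Q against 48Q. Of the 7 genes, 5, 2 and 1 were called, with 3 to 5, 0 to 2 and 0 to 1 when 1 library was left out. DESeq2 called 4 in 48Q against WT, and between the tumor genotypes it called 3 (Spdef, Defa21 and Mmp7), and with only the 2 groups in the fit 0 were called in 12Q against 48Q (3 at an unadjusted p below 0.05). The ratio of Lyz1 in 48Q to WT, -0.53 on the log2 scale, turned to 0.23 with library totals and ranged from -1.38 to 1.69 when 1 library was left out (1.69 without WT replicate 1). Ang4 in 12Q against 48Q, 2.46, ranged from -7.34 to 6.94 (-7.34 without 12Q replicate 2, since the other 12Q library had 0 counts, and 6.94 without 48Q replicate 1). Otherwise the cause was not tested. With library totals the calls in 48Q against WT went from 5 to 8 for stem cell and Wnt genes, from 3 to 5 for other antimicrobial products, from 1 to 3 for intestinal epithelium and SOX genes alike, and from 0 to 3 for Notch genes and 0 to 2 for Paneth cell regulators, all higher in 48Q. Replicate numbers did not pair the samples: same-numbered libraries' deviations correlated at 0.03, 0.13 and -0.10. With the replicate block 3066, 854 and 605 genes were called, and 5, 2 and 1 of the 7. Values near or under 3 counts per library, as for Ang4 (1 count) and Atoh1 (4 counts) in 48Q replicate 2, are limited by depth.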

Other observations

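Some basal epithelial genes differed between the tumor genotypes with smaller adjusted p-values than any of the 7 Paneth-cell genes. Trp63, the master factor of basal cells, had 1 and 6 counts in the 12Q pair, 983 and 850 in the 48Q pair and 650 and 970 in the WT pair. It fell in 12Q against 48Q tumors (log2 fold change -7.80, SE 0.59, edgeR adjusted p = 0.00813), as did Col17a1 (-8.28, SE 0.48, adjusted p = 0.00813), Krt5 (-8.08, SE 0.81, adjusted p = 0.0165) and Krt15 (-8.20, SE 0.80, adjusted p = 0.0161). These 4 calls were kept in all 6 fits that left out 1 library. Of 7 basal genes tested, 5 were called lower in 12Q than in 48Q tumors (3.16% of all genes). Itgb4 went the other way, at 119 and 175 CPM in 12Q, 72.4 and 70.1 in 48Q and 23.4 and 39.6 CPM in WT, and rose in 12Q against WT (log2 fold change 2.22, SE 0.34, adjusted p = 0.00961, kept in all 6 such fits). Dlx3, a homeobox factor of hair and skin, had 1749 and 3681 counts in the 12Q libraries, 500 and 797 in the 48Q libraries and 3 and 9 in the WT libraries, the order of Defa21. It rose in 12Q (log2 fold change 8.28, SE 0.60, adjusted p = 0.00270) and in 48Q tumors (6.04, SE 0.57, adjusted p = 0.00991, lost without WT replicate 1). Of 9 hair follicle and sebaceous stem cell genes tested, Dlx3 alone was called against WT, beside 11.2% of all genes higher in 12Q and 3.95% in 48Q. The median log2 fold change of these 9 was 0.54 in 12Q and 0.10 in 48Q tumors.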
